A study of Gossypium hirsutum with 6 samples.

Results

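The RL6 gene pair, Gh_D05G2470 and Gh_D01G0047, was examined among the 65894 genes measured in ovules of Xu142, an upland cotton (*Gossypium hirsutum*) line with fiber, and of its fiberless mutant *Xu142fl*. The ID places the first on chromosome D05 and the second on chromosome D01, both of the D subgenome. The pair was chosen because the study named both genes RL6 and plotted them among the MYB genes that differed between the lines, Gh_D05G2470 with the downregulated and Gh_D01G0047 with the upregulated genes. Their difference between the lines is therefore given as a description, without a p-value. The plants were field grown, and each library held ovules pooled from -3 and -1 days post anthesis (DPA), before fiber initials become visible. There were 3 libraries of each line, which the study describes as biological replicates. How much of each stage went into a library is not given in the sources used here. In these libraries the mutant was compared with Xu142 only, so any other difference in background between the lines cannot be told apart from the fiberless trait. The study also compared *Xu142fl* with a linted mutant, *n2NSM*, by PCR, for MML genes only.

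RADIALIS-like (RL) genes encode small proteins with a single MYB-type DNA-binding domain, far shorter than the R2R3-MYB activators that start fiber and hair cells. The founding member, RADIALIS of *Antirrhinum*, sets the identity of the upper petals and antagonizes the larger MYB protein DIVARICATA by competing for the protein partners that DIVARICATA needs. In tomato, a related small MYB protein restrains cell expansion in the fruit through the same kind of competition. The roles of both cotton genes are not given in the sources used here, and the name RL6 is the study's annotation.

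Levels are given as FPKM, that is fragments scaled by transcript length and by the mapped reads of the library, so that genes of different length can be set side by side. The table holds no read counts or transcript lengths. The study gives the depth of each library, but the number of reads behind each gene's value is unknown. Precision therefore rests on the spread between libraries. The 6 libraries had median levels of 3.38 to 4.01 FPKM over all genes. Xu142 replicate 2 and *Xu142fl* replicate 1 stood apart from the remaining libraries of their lines. In the study's mapping summary, the libraries of these numbers had the lowest uniquely mapped share of their line. Taking the median over genes, the absolute log2 difference was 0.266 and 0.234 between Xu142 replicate 2 and replicates 1 and 3, and 0.136 between those replicates. It was 0.290 and 0.366 between *Xu142fl* replicate 1 and replicates 2 and 3, and 0.173 between those. Between Xu142 replicate 2 and *Xu142fl* replicate 1, which belong to different lines, it was also 0.290. The levels of the pair, their ratio and their sum are therefore also given without them. The SD within lines that is set against other genes is given for all 6 libraries only.

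The RL6 gene on D05 was abundant in Xu142 and lower in the mutant. The FPKM of Gh_D05G2470 were 99.61, 85.91 and 92.50 for replicates 1 to 3 of Xu142, and 32.96, 38.36 and 37.42 for those of *Xu142fl*. The lines did not overlap, and the lowest Xu142 library lay more than 2-fold above the highest mutant library. Xu142 averaged 92.7 ± 6.85 FPKM (SD, n = 3) and the mutant 36.2 ± 2.88 FPKM, a ratio of 2.56. In all 9 pairings of a Xu142 with a mutant library the Xu142 value was the higher, by 2.24-fold to 3.02-fold. Between libraries of the same number the ratio of Xu142 to *Xu142fl* was 3.02, 2.24 and 2.47 for replicates 1, 2 and 3. On the scale of log2(FPKM + 0.1), the difference of *Xu142fl* from Xu142 was -1.35 (limma standard error 0.10). Without Xu142 replicate 2 and *Xu142fl* replicate 1 the ratio of means was 2.54 and the log2 difference -1.34.

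The RL6 gene on D01 had the higher mean in the mutant, with a wide spread in both lines. The FPKM of Gh_D01G0047 were 24.08, 5.36 and 42.65 for replicates 1 to 3 of Xu142, and 34.52, 74.82 and 82.74 for those of *Xu142fl*. The lines overlapped, since Xu142 replicate 3 lay above *Xu142fl* replicate 1. Xu142 averaged 24.0 ± 18.6 FPKM (SD, n = 3) and the mutant 64.0 ± 25.9 FPKM, a ratio of 2.66. The mutant library was the higher in 8 of the 9 pairings, and its ratio to the Xu142 library ran from 0.809 to 15.4. Between libraries of the same number, *Xu142fl* was 1.43, 13.96 and 1.94 times as high for replicates 1, 2 and 3. The log2 difference was 1.75 (limma standard error 0.74), and Xu142 replicate 2 decided much of it. Without that library the log2 difference was 0.90 and the ratio of means 1.92, and without *Xu142fl* replicate 1 they were 2.15 and 3.28. Without both, Xu142 had 33.4 ± 13.1 and *Xu142fl* 78.8 ± 5.60 FPKM (SD, n = 2), and the log2 difference was 1.29 (limma standard error 0.26). The lines then did not overlap, but the mutant library of the overlap had been left out, and lines of 2 libraries separate easily. In bulk ovules, a change in the number of cells that express a gene and a change in its RNA per cell cannot be told apart.

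**Figure D1:**
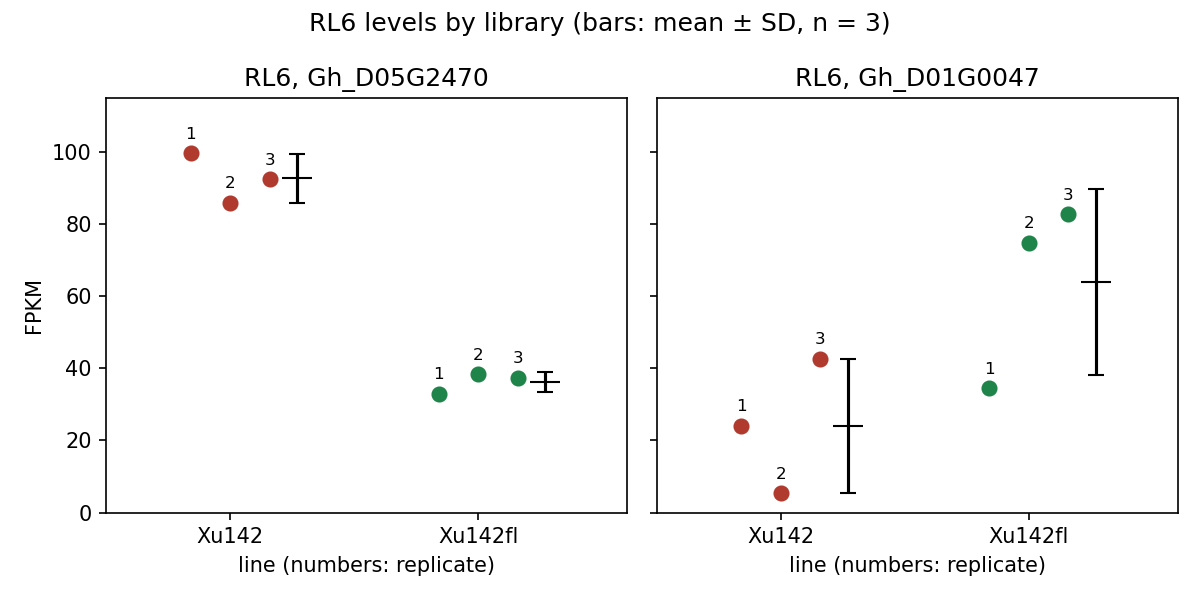
FPKM of Gh_D05G2470 (left) and Gh_D01G0047 (right) in each library of Xu142 (red) and *Xu142fl* (green), with the replicate number above each point and the mean ± SD (n = 3) as a bar. The D05 gene forms tight groups that do not overlap, between 85.91 and 99.61 FPKM against 32.96 to 38.36 FPKM, whereas the D01 gene spreads from 5.36 to 42.65 and from 34.52 to 82.74 FPKM.

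All 56395 genes that averaged 0.1 FPKM or more were fitted with limma. A gene was called where its fold change reached 2 with an adjusted p (Benjamini-Hochberg) no higher than 0.05. This was so for 6.14% of them, 1.67% higher and 4.47% lower in *Xu142fl*. Gh_D05G2470 met these limits as a lower gene and Gh_D01G0047 did not meet them, and nothing is read from this, because the pair was chosen on the same contrast. Lines without overlap were found for 1 of the 2 genes and for 35.0% of all tested genes.

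The order of the pair turned over between the lines. In Xu142 the D05 gene was 4.14, 16.0 and 2.17 times as high as the D01 gene in replicates 1 to 3. In *Xu142fl* it was 0.955, 0.513 and 0.452 times as high. The D05 gene thus had the higher FPKM in each of the 3 Xu142 libraries, and the D01 gene in each of the 3 mutant libraries, by 1.05-fold, 1.95-fold and 2.21-fold. In *Xu142fl* replicate 1 the levels of the pair were nearly equal. In Xu142 the log2 ratio of the D05 to the D01 gene was 2.39 ± 1.47 (SD, n = 3). In *Xu142fl* it was -0.73 ± 0.58, and the lines did not overlap. Without Xu142 replicate 2 and *Xu142fl* replicate 1 it was 1.58 ± 0.66 and -1.05 ± 0.13 (SD, n = 2). Since both genes were chosen on their opposite differences, this turn is a description of the pair.

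The line means of the summed level of the pair differed less than those of either gene. Both genes were chosen on their opposite differences, which largely fixed this, so the sum is a description of the pair. The sum was 123.7, 91.3 and 135.2 FPKM in Xu142 replicates 1 to 3 and 67.5, 113.2 and 120.2 FPKM in *Xu142fl* replicates 1 to 3, so that the lines overlapped. Its means of 116.7 ± 22.8 FPKM (SD, n = 3) in Xu142 and 100.3 ± 28.6 FPKM in *Xu142fl* differed by less than the SD within either line. The lowest sum of each line belonged to the library that stood apart. Without these libraries the sums were 129.4 ± 8.10 and 116.7 ± 4.94 FPKM (SD, n = 2). The lines then did not overlap, but the Xu142 library of the overlap had been left out. The D01 gene supplied 19.5%, 5.87% and 31.6% of the sum in the Xu142 libraries and 51.2%, 66.1% and 68.9% in the mutant libraries.

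**Figure D2:**
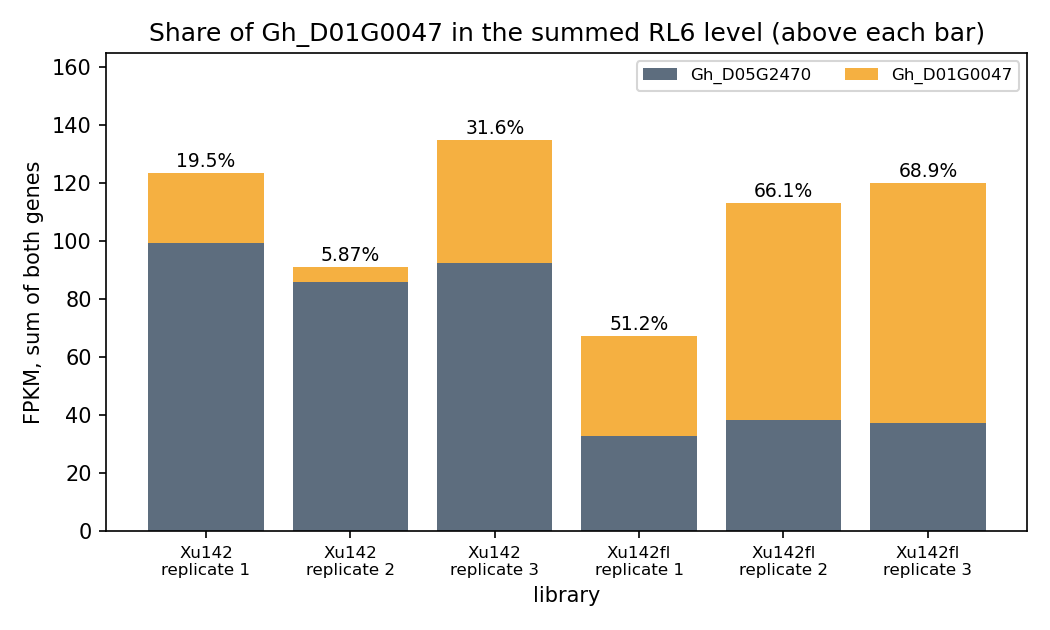
Stacked FPKM of Gh_D05G2470 (grey) and Gh_D01G0047 (orange) in each of the 6 libraries, with the share of Gh_D01G0047 in the sum written above each bar. The sum overlaps between the lines, and the D01 share lies between 5.87% and 31.6% in Xu142 and between 51.2% and 68.9% in *Xu142fl*.

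Both genes ranked high among all genes of their libraries, except for Gh_D01G0047 in Xu142 replicate 2. Gh_D05G2470 stood above 97.9% to 98.3% of the 65894 genes in the Xu142 libraries and above 92.3% to 93.6% in the mutant libraries. Gh_D01G0047 stood above 97.5% and 97.7% of genes in *Xu142fl* replicates 2 and 3 and above 92.8% in replicate 1. In Xu142 it stood above 88.4%, 58.1% and 94.4% of genes in replicates 1 to 3. Its level was thus 1.52 times the median gene in Xu142 replicate 2 and 21.4 times the median gene in *Xu142fl* replicate 3.

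The spread between libraries of the same line, which is no part of the contrast between the lines, differed widely within the pair. On the scale of log2(FPKM + 0.1), the SD within lines was 0.11 for Gh_D05G2470. It was 1.19 for Gh_D01G0047. Of the 4626 other genes with a mean within 2-fold of that of Gh_D05G2470, 35.5% had a lower SD, and their median was 0.15. Of the 7219 other genes with a mean within 2-fold of that of Gh_D01G0047, 99.9% had a lower SD, 9 had a higher one, and their median was 0.14. Within Xu142 alone its SD was 1.53, and 3 of these genes had a higher one. Within *Xu142fl* it was 0.69, and 73 had a higher one. The highest library was 7.96 times the lowest within Xu142 and 2.40 times the lowest within *Xu142fl*, against 1.16 times in both lines for Gh_D05G2470.

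**Figure D3:**
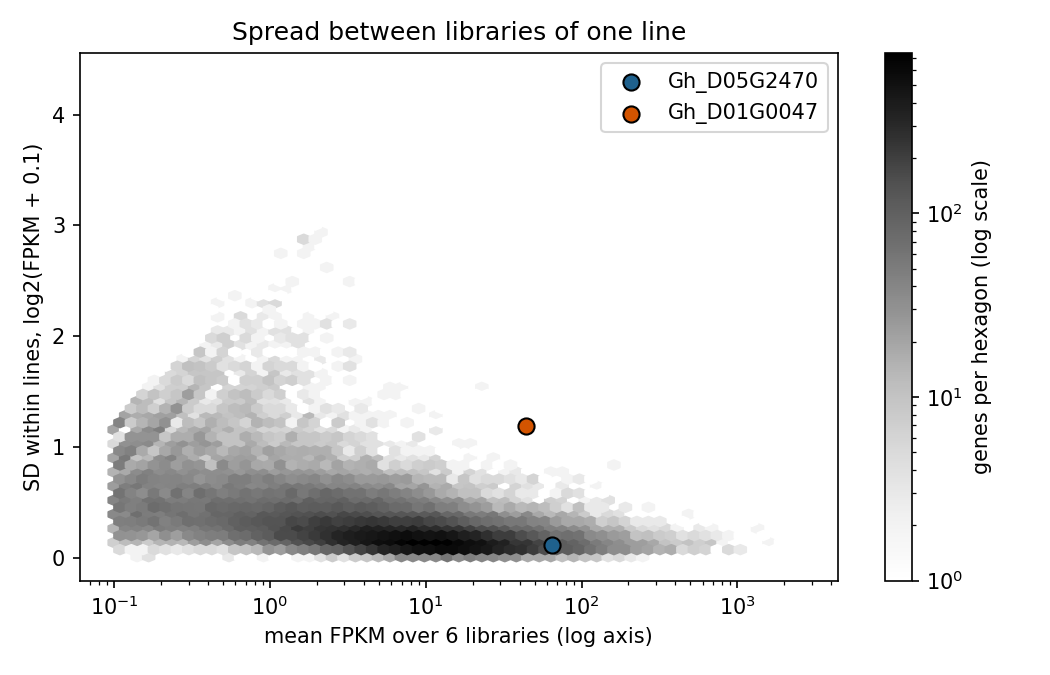
SD within lines of log2(FPKM + 0.1) against mean FPKM over the 6 libraries (log axis) for all tested genes, shaded by their number, with both RL6 genes as points. Gh_D01G0047, at an SD of 1.19, lies above nearly all genes of its level, and Gh_D05G2470, at 0.11, lies within the mass of genes.

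Both RL6 genes had their lowest Xu142 value in replicate 2 and their lowest mutant value in replicate 1, the libraries that stood apart. These low libraries were shared by 32.8% of all tested genes. For Gh_D05G2470 the deviation was small, with a log2 difference of -0.16 in Xu142 replicate 2 and -0.20 in *Xu142fl* replicate 1 from the mean of the remaining libraries of the line. For Gh_D01G0047 it was -2.56 and -1.19, or 5.89-fold and 2.28-fold lower. The median over all tested genes was -0.07 and -0.06. A deviation at least as low in both libraries as that of Gh_D01G0047 was seen in 112 genes, the gene itself included, which is 0.199% of those tested. Of the 7219 genes of a similar level, 1 was as low in both. Whether the libraries themselves, for example by their mix of stages, had a part in the low values was not tested.

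**Figure D4:**
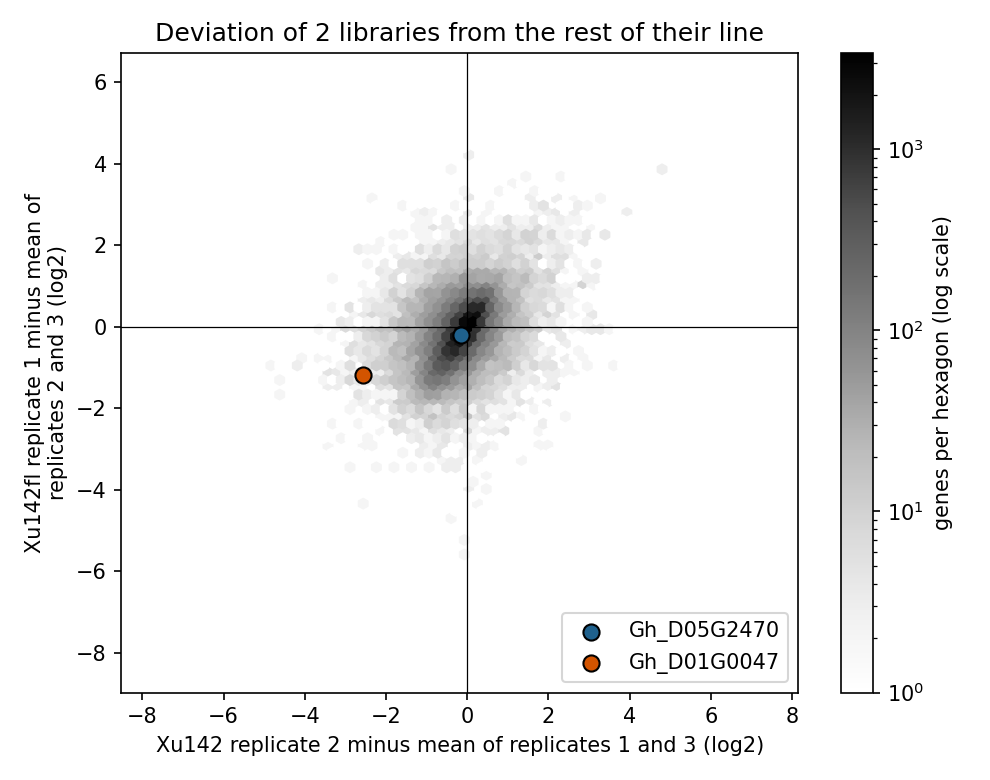
Deviation of Xu142 replicate 2 (horizontal axis) and of *Xu142fl* replicate 1 (vertical axis) from the mean of the remaining libraries of the line, in log2 units, for all tested genes shaded by number. Gh_D01G0047 lies at -2.56 and -1.19, at the edge of the genes, and Gh_D05G2470 lies near the centre at -0.16 and -0.20.

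The genes beside the pair on the chromosomes were compared next, since the TM-1 IDs number genes along a chromosome. Of the 20 genes with the nearest IDs to Gh_D05G2470 on D05, 16 passed the filter on low FPKM, and limma called 0 of them by these limits, where 6.14% of all tested genes were called. An unadjusted limma p under 0.05 was found for 1 of them, and the share of all tested genes at that limit was not counted. Their log2 fold changes ran from -0.88 to 0.60 with a median of 0.08, where the median over all tested genes was 0.01. The gene before it, Gh_D05G2469, had means of 14.3 ± 1.46 and 16.3 ± 2.97 FPKM (SD, n = 3) in Xu142 and the mutant (limma adjusted p = 0.48). The gene after it, Gh_D05G2471, had 3.34 ± 0.271 and 2.48 ± 0.461 FPKM (limma adjusted p = 0.18). None of the 16 had a mean as high as the RL6 gene.

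On D01, 16 of the 20 neighbours of Gh_D01G0047 passed the filter. Limma called 1 of them, as lower in *Xu142fl*, against 6.14% of all tested genes in either direction. An unadjusted limma p under 0.05 was found for 5. Nothing is read from that count, since the share of all tested genes at that limit was not counted. Gh_D01G0044, with a mean of 51.0 FPKM, had a log2 fold change of 0.47 (limma standard error 0.13, adjusted p = 0.0499), under the 2-fold limit and in the direction of the RL6 gene, and is named after its value was seen. The called gene was the nearest tested gene before Gh_D01G0047, Gh_D01G0045, which held 1.25, 0.79 and 0.67 FPKM in the Xu142 libraries and 0.22, 0.39 and 0.31 FPKM in the mutant libraries. It fell by 1.28 on the log2 scale (limma standard error 0.33, adjusted p = 0.045), in the direction opposite to the difference of the RL6 gene. Omitting any 1 of the 6 libraries ended the call (limma adjusted p = 0.065 to 0.15), and so did a pseudocount of 0.01, quantile normalization and no filter (0.050 to 0.060). With a pseudocount of 1 its log2 fold change was -0.53. The nearest gene after Gh_D01G0047, Gh_D01G0048, had 0.923 ± 0.219 and 1.11 ± 0.121 FPKM (SD, n = 3; limma adjusted p = 0.53). The log2 fold changes of the 16 neighbours ran from -1.28 to 0.47 with a median of 0.15. Among the 13 neighbours that averaged 1 FPKM or more, the highest SD within lines was 0.38, against 1.19 for Gh_D01G0047.

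**Figure D5:**
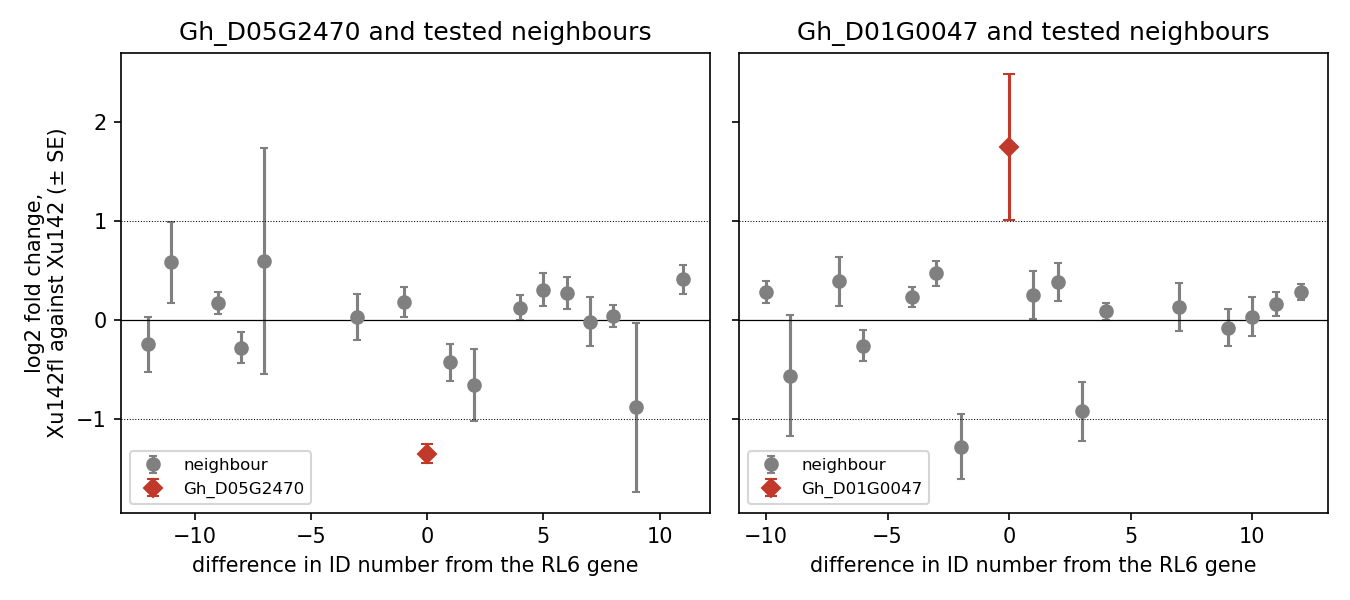
Log2 fold change (*Xu142fl* against Xu142, ± limma standard error) of each RL6 gene (red) and of its tested neighbours (grey) against the difference in ID number, with dotted lines at a 2-fold change. The neighbours lie between -0.88 and 0.60 on D05 and between -1.28 and 0.47 on D01, and the RL6 genes lie at -1.35 and 1.75.

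The genes most like each RL6 gene were sought by Pearson's r of log2(FPKM + 0.1) over the 6 libraries, among 45565 other genes that averaged 1 FPKM or more. The libraries share 2 lines, so a difference between the lines alone gives a high r, and the values are a description. Over all these genes the median r was -0.04 with Gh_D05G2470 and 0.17 with Gh_D01G0047. The r between both RL6 genes was -0.59, and 0.72 for their deviations from the line means. Both genes were lowest in Xu142 replicate 2 and *Xu142fl* replicate 1, and these deviations contain that. No r within lines was computed without these libraries.

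The D05 gene had many genes of like pattern, as 283 reached an r of at least 0.99. The highest was Gh_A12G1048 (r = 0.9999), with 19.29, 16.52 and 18.00 FPKM in Xu142 and 5.57, 6.74 and 6.48 FPKM in *Xu142fl*. Its log2 fold change was -1.50, which its choice by likeness largely fixed, and no p-value is given for that reason. The level of Gh_D05G2470 was 5.14 to 5.92 times that of Gh_A12G1048 in every library. The second was a predicted new gene, BGI_novel_G001187 (r = 0.9999), with 2.62, 1.66 and 2.17 FPKM in Xu142 and 0, 0.06 and 0.04 in *Xu142fl*. For deviations within lines the highest r were those of Gh_A04G0821 and, at 0.9997, Gh_D03G1590. The lines of both overlapped.

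The D01 gene had fewer, with 22 genes at an r of at least 0.99. The highest was Gh_A02G1262 (r = 0.997), with 2.23, 0.54 and 4.03 FPKM in the Xu142 libraries and 3.32, 8.31 and 8.02 FPKM in *Xu142fl*. Like Gh_D01G0047 it was low in Xu142 replicate 2 and in *Xu142fl* replicate 1, which its choice by likeness largely fixed. From *Xu142fl* replicate 2 to replicate 3 Gh_D01G0047 rose, while Gh_A02G1262 fell slightly. The level of Gh_A02G1262 was 9.004 to 10.8 times lower. Its lines overlapped in the same libraries. Its name is not given in the sources used here, and reads that fit more than 1 gene were divided by RSEM, so whether both share reads was not tested. The second, the predicted new gene BGI_novel_G005260 (r = 0.996), shared the order of the libraries and not the size of the differences, since it ran only from 36.97 to 48.05 FPKM. For deviations within lines the highest r were those of Gh_D11G0726 (0.9997) and BGI_novel_G001857 (0.9996). BGI_novel_G001857 had 1.09, 0.20 and 1.80 FPKM in Xu142 and 0.64, 1.35 and 1.54 FPKM in *Xu142fl*.

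Of the MYB genes that bear on this family, DIVARICATA (Gh_D10G2465), whose *Antirrhinum* namesake is the antagonist of RADIALIS, was weakly expressed. It had 0.41, 0.46 and 0.79 FPKM in Xu142 and 0, 0.08 and 0.23 FPKM in *Xu142fl*. The lines did not overlap, and 19.5% of all tested genes were lower in the mutant without overlap. Its log2 fold change was -1.81 (limma standard error 0.51), and it was not called. Each RL6 gene was the more abundant in every library, per length. The study chose this gene on the same contrast, so no p-value is given and nothing is read from its difference.

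The 6 MML genes, R2R3-MYB genes of which MML3 and MML4 are known from fuzz and lint initiation, were set beside the pair as a list that the study had chosen on these libraries. All 6 were called as lower in the mutant, against 4.47% of all tested genes, by a median of -2.40 on the log2 scale, and leaving out 1 library left 4 to 6 of them called. The most abundant in Xu142, MML3 on D12 (Gh_D12G1628), had 61.49, 54.55 and 51.83 FPKM in Xu142 and 0.18, 0.37 and 0.28 FPKM in *Xu142fl*. In Xu142 the D05 RL6 gene was thus the more abundant, and in the mutant it had 0.391 of its Xu142 mean, against 0.00494 for this MML3 gene and 0.198 for MML3 on A12 (Gh_A12G1503), the most abundant of them in the mutant at 7.69 ± 0.693 FPKM (SD, n = 3). Its r with the 4 MML genes that averaged 1 FPKM or more ran from 0.962 for MML8 (Gh_A13G0688) to 0.996 for MML3 on D12. The r of the D01 RL6 gene with them ran from -0.65 for MML3 on D12 to -0.58 for MML9 (Gh_A13G0689). An r over the 6 libraries contains the difference between the lines, on which all of these genes were chosen, so nothing is read from its sign. Outside these libraries, the study's qRT-PCR found MML3 and MML4 lower in *Xu142fl* than in the linted mutant *n2NSM*. Its RT-PCR did not detect MML8 and MML9. For deviations within lines the median r with the 4 MML genes was 0.59 for the D05 and 0.31 for the D01 RL6 gene, and the median over all genes was 0.33 and 0.30.

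The upregulated side was set beside the lists of DNA replication and phospholipid genes, also chosen by the study on these libraries. Of the 20 DNA replication genes, 19 were called as higher in the mutant, against 1.67% of all tested genes, the list having a median of 1.12 on the log2 scale, and leaving out 1 library left 9 (without *Xu142fl* replicate 3) to 20 called. With a pseudocount of 1, 8 were called, and without Xu142 replicate 2 and *Xu142fl* replicate 1 together, 19 were. The lines did not overlap in all 20, against 15.6% of all tested genes that were higher in the mutant without overlap, and they overlapped in Gh_D01G0047. Of these genes, 16 had their lowest Xu142 value in replicate 2 and their lowest mutant value in replicate 1, the low libraries of Gh_D01G0047, against 32.8% of all tested genes. The r of Gh_D01G0047 with them ran from 0.639 for an MCM2 gene (Gh_A11G2852), a subunit of the replicative helicase, to 0.929 for an RPA3B gene (Gh_A05G2910), a subunit of the single-strand binding protein. Those of Gh_D05G2470 were negative, from -0.99 for DNA2 (Gh_A11G1285), a helicase and nuclease, to -0.77 for GINS2 (Gh_A05G4010), a further subunit of the helicase complex. These r contain the difference between the lines as well. For deviations within lines the median r with the 20 genes was 0.78 for Gh_D05G2470 and 0.70 for Gh_D01G0047. Over all genes it was 0.33 and 0.30. Both RL6 genes and 16 of the 20 were lowest in Xu142 replicate 2 and *Xu142fl* replicate 1, so these r contain those shared low libraries.

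Of the 5 phospholipid genes, 2 were called as higher, against 1.67% of all tested genes, with a median log2 fold change of 1.35. Leaving out 1 library left 1 to 5 called, with 5 without *Xu142fl* replicate 1. Without Xu142 replicate 2 and *Xu142fl* replicate 1 together, 5 were called, in a setting that called 4662 genes in either direction. All 5 had their lowest values in Xu142 replicate 2 and *Xu142fl* replicate 1, as 32.8% of all tested genes did. The list averaged 2.11, 1.29 and 1.86 on the scale of log2(FPKM + 0.1) in the Xu142 libraries and 2.44, 3.47 and 3.53 in the mutant libraries. On the same scale Gh_D01G0047 had 4.60, 2.45 and 5.42 in Xu142 and 5.11, 6.23 and 6.37 in *Xu142fl*. In *Xu142fl* the list and the gene had the same low library, and in Xu142 they shared the low library but not the highest. Its r was highest with AAPT2 (Gh_D10G0924, 0.910), an enzyme that joins the head group to a phospholipid, and lowest with TAMM41 (Gh_D11G0508, 0.805), which works on mitochondrial phospholipids. For deviations within lines the median r with the 5 genes was 0.79 for Gh_D01G0047 and 0.94 for Gh_D05G2470. Over all genes it was 0.30 and 0.33. All 5 genes and both RL6 genes were lowest in the same libraries, which these r contain.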

How the data were processed

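Per the file headers and the methods, the authors deposited FPKM values, normalized for transcript length and mapped reads, with no scaling between libraries stated. The methods give filtered reads aligned to the TM-1 assembly, where Bowtie2 served known genes, HISAT2 with StringTie served new transcripts, and RSEM estimated expression. The submitters' processing notes name HISAT2 2.1.0. RSEM splits ambiguous reads between genes, so levels of near-identical copies are uncertain. Raw reads, counts and copies of RL6 in the A subgenome were not analysed here. Of the IDs, 0 were found in RefSeq's gene table (Gossypium_hirsutum_v2.1), and coordinates and sequences are not given.

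The 6 columns were matched to libraries by title, with 0 columns unmatched. No pair of libraries shared more than 2.06% of identical values. Values were analysed as log2(FPKM + 0.1) for 56395 genes that averaged 0.1 FPKM or more, with limma 3.58.1 (intensity trend, Benjamini-Hochberg adjustment over all tested genes) in R 4.3.3. This scale understates the fold change of low genes. The fit was tested on simulated data. DEGseq, the study's test, needs counts and was not run. Python 3.11.15, pandas 2.3.3, numpy 2.4.6 and matplotlib 3.10.9 were used.

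Named genes were both members, DIVARICATA, the 6 MML genes, the ends of the lists of 20 DNA replication and 5 phospholipid genes of the study, the 2 genes most like each member over the libraries and within lines, the nearest tested gene on each side and any called neighbour. Members, lists and rule were chosen with earlier results of these data known. The names of RL6 and DIVARICATA come from the study's labels. Alternatives were libraries left out, a replicate block, a stricter limit, quantile normalization or median-ratio scaling, robust limma, limma without trend, and further filters and pseudocounts.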

Additional observations from a re-analysis of the deposited data

How the results depend on the processing

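Over 12 alternatives each, the log2 difference of Gh_D05G2470 stayed between -1.41 and -1.29, that of Gh_D01G0047 between 0.90 and 2.38, and the difference between lines of their log2 ratio (-3.10) between -3.73 and -2.30. The extremes of Gh_D01G0047 and of the ratio came without Xu142 replicate 2 and without Xu142 replicate 3. No direction turned, and each value moved by less than the SD within lines. The replicate block, among the 12 alternatives, could not move these values, since each replicate number occurs once in each line. The count of called genes (3463) fell to 1915 with a pseudocount of 1 and to 423 under the stricter limit of 0.001 on the adjusted p. It was 4662 without Xu142 replicate 2 and *Xu142fl* replicate 1. It ran from 1936 without Xu142 replicate 3 to 4609 without *Xu142fl* replicate 1 when 1 library was left out. The called neighbour of Gh_D01G0047 was lost with a pseudocount of 1, which left 0. Of the 100 genes most like each member, 19 for Gh_D05G2470 and 2 for Gh_D01G0047 were among the 100 without Xu142 replicate 2 and *Xu142fl* replicate 1, a setting with 4 libraries. The causes were not tested.

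No pairing of the libraries by replicate number was seen. Deviations from the line means of same-numbered libraries had r of -0.25, -0.23 and 0.14 across genes, and 0 of 6 libraries correlated best with its own number. The highest r between a Xu142 and a mutant library was 0.40, for Xu142 replicate 2 and *Xu142fl* replicate 1. These libraries had the largest weights (0.50 and 0.64) in the main pattern of the deviations, which cancel within each line. A weaker pairing by number could therefore not be seen by this check. With a replicate block 2048 genes were called, the neighbour Gh_D01G0045 not among them (limma adjusted p = 0.14), and 13 of the DNA replication, 5 of the MML and 1 of the phospholipid genes. Each replicate number occurs once in each line, so the block could not move the log2 differences of the RL6 genes (-1.35 and 1.75). The same holds for that of their ratio (-3.10). The block changed the limma standard error from 0.097 to 0.125 for Gh_D05G2470 and from 0.74 to 0.64 for Gh_D01G0047.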
